A study of Mus musculus with 96 samples.

Results

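The thin descending limb of the loop of Henle of short-looped nephrons (DTL1) was compared with the inner medullary part of the thin descending limb of long-looped nephrons (DTL3). The members were the 8 samples that the labels place in these segments, 4 of each, among the 93 samples of tubule and glomerulus that the deposited table holds. The 4 DTL1 samples came from 3 mice, numbered 1, 3 and 5, and the 4 DTL3 samples from 3 mice, numbered 1, 2 and 3. The series counts 53 mice, which equals its number of combinations of mouse number and segment, so each combination was taken as its own mouse; the labels do not state this. Mouse 3 gave 2 pieces in each segment, and the other mice gave 1 piece each.

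All groups shared 1 background: male C57BL/6 mice of 6 to 8 weeks, kept free of pathogens, with water and ordinary chow always available. Tubules were microdissected from the kidney, and polyadenylated RNA was read by an RNA-seq protocol for very small inputs. The whole series covered 15 groups, namely 14 tubule segments and the glomerulus. The other segments used below for orientation were the outer medullary part of the long descending limb (DTL2), the last proximal straight segment (PTS3), the thin ascending limb (ATL) and the inner medullary collecting duct (IMCD). Values are TPM, transcript abundances scaled for transcript length and for the total of a sample. Values of single mice are given in the order of mice 1, 3 and 5 for DTL1 and of mice 1, 2 and 3 for DTL3, and a mean is followed by the SD over the 3 mice of a segment. A gene was called where limma gave a Benjamini-Hochberg adjusted p under 0.05 over all genes tested and a log2 difference of at least 1. Positive log2 differences mean higher in DTL1. They were taken on log2(TPM + 1), with their standard error (SE), and understate the change of genes that are low in 1 segment. The SE and p rest on a spread pooled over the mice of all 15 groups. They therefore do not give the spread of the DTL1 and DTL3 mice alone, which can be wider.

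The thin descending limb carries tubule fluid down into the medulla, where the interstitium becomes more concentrated with depth. Short loops turn within the outer medulla, so their descending limb does not meet the hypertonic, poorly oxygenated inner medulla that the lower part of a long loop runs through. The descending limb of short loops is known for the urea transporter UT-A2, a product of Slc14a2. The descending limb of long loops is known for the water channel aquaporin-1, encoded by Aqp1. Cells of the inner medulla are known to take up or make small organic solutes, such as sorbitol and betaine, against high salt, and to draw much of their energy from glycolysis.

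Both labels were borne out by these defining transcripts. Slc14a2 stood at 9809, 8804 and 4052 TPM in DTL1 and at 28.4, 3.61 and 8.32 TPM in DTL3. The mice of the segments did not overlap (log2 difference 9.42 ± 0.38 (SE), adjusted p = 2.0e-23). DTL1 mouse 5 was the lowest of its segment. Outside the thin limbs, IMCD held Slc14a2 at 2182 TPM, while DTL2 held 4.63 TPM. Aqp1 showed the opposite order, at 227, 16.5 and 48.6 TPM in DTL1 and at 12081, 11152 and 11708 TPM in DTL3 (log2 difference -7.64 ± 0.51 (SE), adjusted p = 3.6e-16). The 3 DTL3 mice were close to each other, and DTL1 mouse 1 was the highest of the DTL1 mice. In DTL2 the Aqp1 mean was 6582 TPM, below DTL3, and in PTS3 it was 495 TPM. Of the 10 water and urea channel genes tested, 4 were called higher in DTL1 and 2 higher in DTL3, and all but Slc14a2 and Aqp1 among these 6 were below 10 TPM in both segments. Those 2 genes kept their calls when the 2 segments were fitted alone, and the other 4 did not.

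The libraries of both segments held a broad background of transcripts. Genes at 1 TPM or more numbered 27303 ± 1093 (SD, n = 3) in DTL1 and 22942 ± 663 in DTL3. Odorant and vomeronasal receptor transcripts summed to 2258 to 3624 TPM in DTL1 mice and to 1185 to 1251 TPM in DTL3 mice. The segments did not overlap in either measure, and with 3 mice against 3 a two-sided exact permutation test can go no lower than the p = 0.1 that both measures gave. Of 33793 genes tested, 5921 (17.5%) were called higher in DTL1 and 1286 (3.81%) higher in DTL3. Of the 5921, 3738 were below 10 TPM in both segments. Among the 12114 genes with a mean of at least 10 TPM in either segment, 2183 (18%) were called higher in DTL1 and 830 (6.85%) higher in DTL3. Genes named for the size of their difference come from these calls; counts of gene lists cover all tested members, so they are read against 17.5% and 3.81%, and list counts at 10 TPM or more against 18% and 6.85%. The share of these calls that lay on the DTL1 side was 72.5%. It was 49.8% after quantile normalization, with 1725 and 1736 calls, and that normalization brought the median difference of all genes tested from 0.33 to 0.00 (log2). TPM keeps no record of sequencing depth, which is therefore unknown, and no counting error is given. Fitted on these 2 segments alone, 1173 of these genes were called, 792 and 381. Over genes, samples of different DTL1 mice correlated at a median r of 0.858, those of different DTL3 mice at 0.933 and DTL1 with DTL3 samples at 0.888, so the DTL1 mice differed more among themselves than the DTL3 mice did. The correlations are across genes, which are not independent replicates. In such bulk samples, fewer cells of a type and less RNA per cell cannot be told apart.

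**Figure D1:**
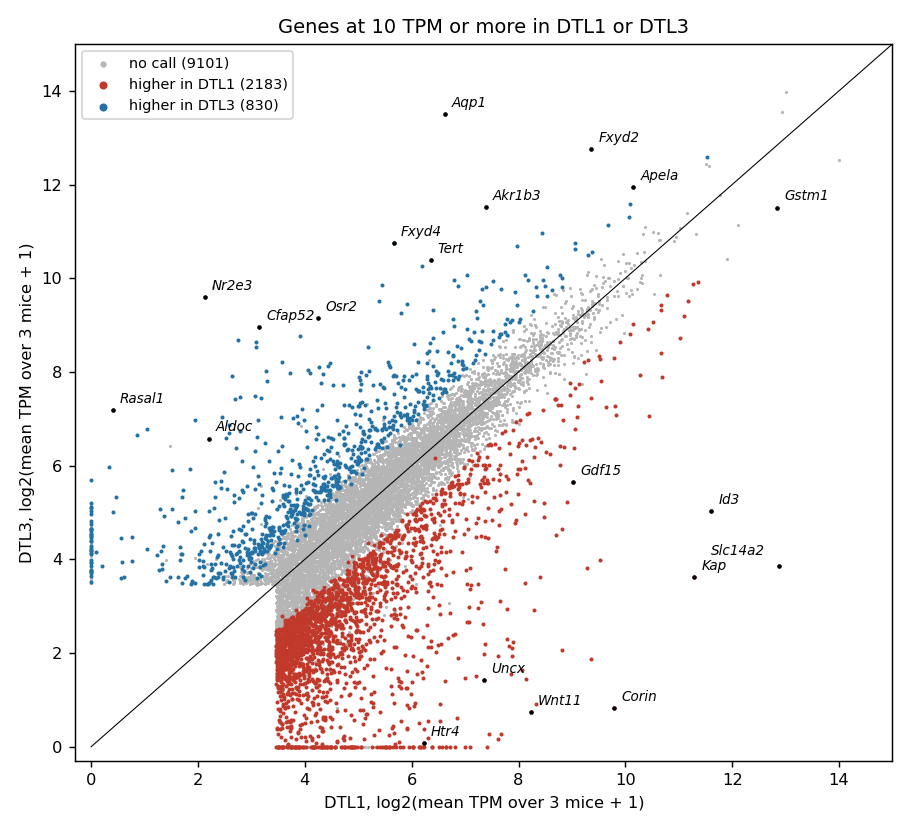
Each point is 1 of the 12114 genes with a mean of at least 10 TPM in DTL1 (horizontal axis) or DTL3 (vertical axis), both as log2(mean TPM over 3 mice + 1). Red points were called higher in DTL1 (2183) and blue points higher in DTL3 (830); the line marks equal levels and labelled genes are named in the text.

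Genes named for the size of their difference were protein-coding, called, at 10 TPM or more and without overlap between the mice of the segments. Among 10310 protein-coding genes at 10 TPM or more, 1518 (14.7%) were called higher in DTL1 and 708 (6.87%) higher in DTL3. All 3 mice of DTL1 lay above all 3 of DTL3 for 7478 (22.1%) of all genes tested, and the reverse held for 2570 (7.61%); at 10 TPM or more these counts were 3092 (25.5%) and 2117 (17.5%). On the DTL1 side, the 15 with the largest log2 difference fell into 2 kinds when set beside PTS3. For 10 of the 15 the PTS3 mean was above the DTL1 mean, among them Kap, Keg1, Akr1c18, Guca2b, Acsm3, Spink1, Aadat, Fbp1 and Akr1c21. The other 5 were Slc14a2, Corin, Prss12, Wnt11 and Id3, and each was higher in DTL1 than in PTS3.

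Corin encodes a serine protease that activates atrial natriuretic peptide. It stood at 1127, 1057 and 464 TPM in DTL1 and at 0.7, 1.26 and 0.37 TPM in DTL3 (log2 difference 8.88 ± 0.33 (SE), adjusted p = 1.3e-24). All 3 DTL1 mice were far above every DTL3 mouse, with mouse 5 the lowest. The means of DTL2, PTS3, ATL and IMCD were 0.633, 0.935, 1.22 and 0.187 TPM. Prss12, another serine protease gene, stood at 295, 227 and 89.3 TPM in DTL1 and at 0.31, 0.18 and 0.13 TPM in DTL3 (log2 difference 7.24 ± 0.32 (SE), adjusted p = 3.4e-22). Wnt11, a secreted Wnt ligand, varied widely within DTL1, at 188, 635 and 74.7 TPM, and was at 0.92, 0.53 and 0.56 TPM in DTL3 (log2 difference 6.95 ± 0.40 (SE), adjusted p = 3.7e-18). Mouse 3 was the highest for Wnt11 and mouse 5 the lowest, and the groups did not overlap. Id3 encodes an inhibitor of basic helix-loop-helix transcription factors. It was even across DTL1, at 2777, 3490.3 and 3079.6 TPM, against 34.1, 24.5 and 36.3 TPM in DTL3 (log2 difference 6.59 ± 0.33 (SE), adjusted p = 3.2e-20).

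Several of the 10 genes with the higher PTS3 mean are textbook transcripts of the proximal tubule. Kap, an androgen-regulated kidney gene, was at 4198, 1029.7 and 2266 TPM in DTL1 and at 0, 30.6 and 3.52 TPM in DTL3, while the PTS3 mean was 75375 TPM. Fbp1, a gluconeogenic phosphatase, had means of 231 ± 94.8 against 1.91 ± 1.99 TPM, with 2215 TPM in PTS3. For both genes, mouse 3 was the lowest of DTL1. Guca2b, which encodes uroguanylin, had means of 175 ± 107 against 0.208 ± 0.361 TPM, and the PTS3 mean was 3034 TPM. Akr1c18 and Akr1c21 belong to a family of near-identical genes among which reads can be split, so their separate values are uncertain. Of the 15 proximal markers examined, 11 were called higher in DTL1 (7 in the fit of the 2 segments alone) and none (0) in DTL3. Their summed level ran from 1953 to 6153 TPM in DTL1 mice, from 23.5 to 59.9 TPM in DTL3 mice and from 85558 to 101419 TPM in PTS3 mice. The proximal marker Slc5a12, an apical monocarboxylate transporter of the early proximal tubule, was under 1 TPM on average in DTL1, DTL3 and PTS3. Over all 2183 genes called higher in DTL1, the PTS3 mean was above the DTL1 mean for 302 (13.8%). It was below for the other 1881, a count added after the data were seen. The part of proximal transcripts in the differences of those 302 genes was not tested.

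**Figure D2:**
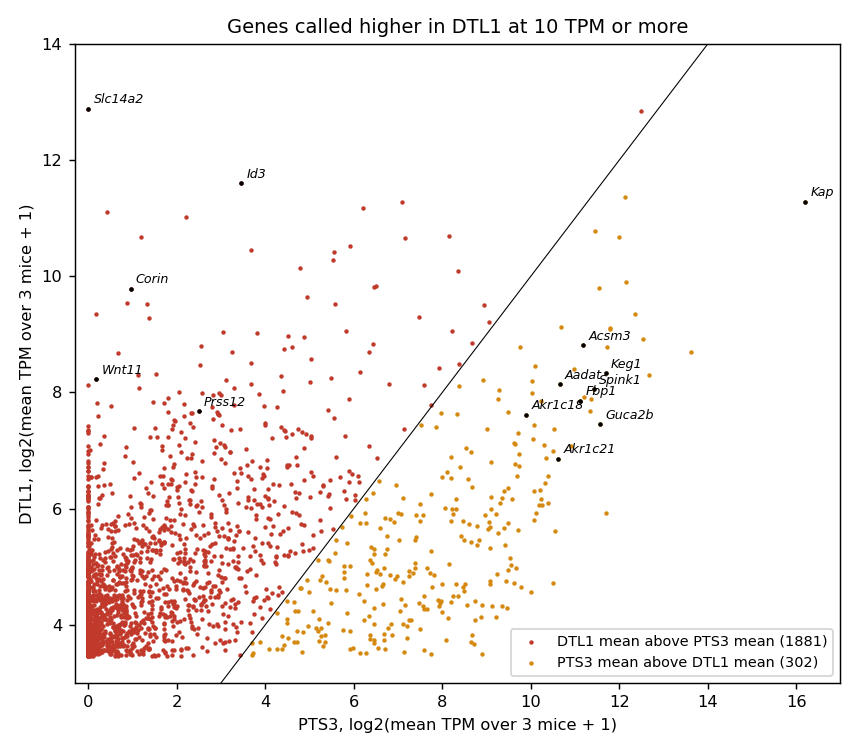
Each point is 1 of the 2183 genes called higher in DTL1 than in DTL3 at 10 TPM or more, with its PTS3 level on the horizontal axis and its DTL1 level on the vertical axis, both as log2(mean TPM over 3 mice + 1). Red points (1881) were higher in DTL1 than in PTS3 and orange points (302) higher in PTS3; labelled genes are among the 15 with the largest log2 difference between DTL1 and DTL3, of which 10 lie on the PTS3 side of the line.

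Ranked by the difference in TPM, the 10 leading genes on the DTL1 side were Slc14a2, Gstm1, Id3, Kap, Ifit3, Angpt2, Plvap, H2-D1, B2m and Spp1. Gstm1, a glutathione S-transferase with close paralogs, stood at 7337, 6914 and 7864 TPM in DTL1 and at 2814, 3068 and 2861 TPM in DTL3 (log2 difference 1.34 ± 0.23 (SE), adjusted p = 1.4e-05). Ifit3, an interferon-induced gene with a near-identical copy Ifit3b, had means of 2072 ± 549.6 against 423 ± 58.9 TPM (log2 difference 2.26). H2-D1, a class I major histocompatibility gene, and B2m, its light chain, had means of 1651 ± 137 against 238 ± 26.9 TPM and of 1620.2 ± 264 against 336 ± 119 TPM. Spp1, which encodes osteopontin, stood at 1869.8, 937 and 1374 TPM in DTL1 and at 264, 25 and 107 TPM in DTL3, far below its DTL2 mean of 26303 TPM (log2 difference 3.87 ± 0.56 (SE), adjusted p = 5.5e-07). Its call was lost when the 2 segments were fitted alone. Angpt2, an angiopoietin, stood at 2232, 2782 and 1598 TPM in DTL1 and at 701, 375 and 684 TPM in DTL3 (log2 difference 1.92, adjusted p = 1.0e-04).

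Plvap, a protein of fenestrated endothelium, stood at 2015, 2871 and 2017 TPM in DTL1 and at 1144, 403 and 643 TPM in DTL3 (log2 difference 1.76 ± 0.59 (SE), adjusted p = 0.017). The call was lost without DTL1 mouse 3 (adjusted p = 0.051) and without DTL3 mouse 2 (adjusted p = 0.099). It was also lost with a pseudocount of 0.1, with pieces as independent samples and in the fit of the 2 segments alone. Of the 15 endothelial markers, 6 were called higher in DTL1 and none (0) in DTL3, and their summed level was 3486 to 4729 TPM in DTL1 mice and 846 to 1954 TPM in DTL3 mice. Slc14a1, the urea transporter of the vasa recta, was under 1 TPM on average in both segments. Leukocyte markers summed to 127 to 437 TPM in DTL1 and to 29.3 to 32.8 TPM in DTL3. Of these 12, 2 were called higher in DTL1, near the 17.5% of all genes tested, and 1 in the fit of the 2 segments alone. Interstitial and muscle markers summed to 54.8 to 99.99 TPM in DTL1 and to 13.2 to 23.99 TPM in DTL3, with 5 of 11 tested called higher in DTL1, 2 without DTL3 mouse 2 and 0 in the fit of the 2 segments alone, and Lum and Postn under 1 TPM in both. Glomerular markers summed to 77.9 to 103 TPM against 29.5 to 31.99 TPM, with 2 of 7 called higher in DTL1. No erythroid marker was called by limma (0 of 6), and their sums did not exceed 2.12 TPM. The part of these cell types in the differences between the segments was not tested.

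On the DTL3 side, all 15 genes with the largest log2 difference had a lower mean in PTS3 than in DTL3. They were Aqp1, Nr2e3, Rasal1, Cfap52, Ppp1r1b, Rnf186, Plk5, Upk3a, Cpm, Fxyd4, Pla2g5, Osr2, Rnf183, Lrrc26 and Fcgbp. Nr2e3, a nuclear receptor best known from photoreceptors, stood at 1.3, 2.03 and 6.77 TPM in DTL1 and at 1104, 399.9 and 805 TPM in DTL3 (log2 difference -7.55 ± 0.52 (SE), adjusted p = 1.5e-15). Every DTL3 mouse was far above every DTL1 mouse, with mouse 2 the lowest of DTL3. The DTL2 mean was 14.4 TPM. Cfap52, a gene of motile cilia, had means of 7.81 ± 10.1 against 495 ± 74.9 TPM and a DTL2 mean of 55.8 TPM. Rasal1, a Ras GTPase-activating protein, stood at 0, 0.835 and 0.14 TPM in DTL1 and at 120.4, 183 and 129 TPM in DTL3 (log2 difference -6.84). Cpm, a membrane carboxypeptidase, had means of 14 ± 11.2 against 434 ± 42.2 TPM and a DTL2 mean of 7.02 TPM.

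Upk3a, a uroplakin known from urothelium, stood at 0, 0.785 and 0 TPM in DTL1 and at 97.1, 33.4 and 55.8 TPM in DTL3 (log2 difference -5.59 ± 0.29 (SE), adjusted p = 1.5e-19), while Upk2, Krt5 and Krt14 of the same urothelial list were under 1 TPM on average in both segments. The 9 urothelial markers summed to 205 to 225 TPM in DTL3 mice and to 76.8 to 102 TPM in DTL1 mice. Of the 6 tested, Upk3a and Trp63 were called higher in DTL3 and Upk1a and Upk1b higher in DTL1, with means of 10.4 ± 4.59 against 24.9 ± 2.98 TPM for Trp63 and of 9.21 ± 3.04 against 0.275 ± 0.134 TPM for Upk1a. The call of Trp63 was lost without DTL1 mouse 1 (log2 difference -0.96, adjusted p = 0.0088), and those of Trp63 and Upk1b in the fit of the 2 segments alone. The part of urothelial cells in the Upk3a difference was not tested. Fxyd4, a regulator of the sodium pump, stood at 35.5, 44.8 and 68.8 TPM in DTL1 and at 1477, 1839 and 1850.3 TPM in DTL3 (log2 difference -5.15 ± 0.51 (SE), adjusted p = 7.3e-11) and was higher still in IMCD, at 3108 TPM. Osr2, a zinc-finger transcription factor gene, had means of 18.1 ± 6.61 against 569 ± 97.2 TPM and 249.6 TPM in DTL2. Ppp1r1b, the phosphatase regulator also called DARPP-32, had means of 7.51 ± 8.35 against 399 ± 67.4 TPM. It had its highest mean of the 15 groups in the medullary thick limb, at 1277 TPM. The 8 thick limb markers summed to 633 to 849 TPM in DTL3 mice and to 247 to 511 TPM in DTL1 mice. Ppp1r1b is itself 1 of these 8, so its own difference is a large part of that between the sums. The thick limb sodium-potassium-chloride cotransporter gene Slc12a1 was under 1 TPM on average in DTL3, as were the markers Cldn16, Kcnj1 and Enox1. Rnf183 and Rnf186, both ubiquitin ligase genes, had means of 5.92 ± 5.49 against 175 ± 72.5 TPM and of 5.75 ± 5.07 against 411 ± 213 TPM. Plk5, Pla2g5, Lrrc26 and Fcgbp had means of 0.808 against 100.2 TPM, 2.87 against 124 TPM, 0.38 against 39.1 TPM and 8.62 against 258 TPM.

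Ranked by the difference in TPM, the 10 leading genes of DTL3 were Aqp1, Fxyd2, Itm2b, Apela, Akr1b3, Cdh16, Fxyd4, Aldoa, Ldha and Tert. Fxyd2, the gamma subunit of the sodium pump, stood at 704, 536 and 723 TPM in DTL1 and at 6952, 7394 and 6491 TPM in DTL3 (log2 difference -3.42 ± 0.20 (SE), adjusted p = 3.0e-18). Apela, a ligand of the apelin receptor, had means of 1135 ± 96.3 against 3932 ± 491 TPM, and Cdh16, kidney-specific cadherin, of 1089.8 ± 189 against 3059.6 ± 139 TPM. Tert, the catalytic subunit of telomerase, stood at 97.2, 84.2 and 61.2 TPM in DTL1 and at 1549, 1131 and 1347 TPM in DTL3 (log2 difference -4.06 ± 0.26 (SE), adjusted p = 2.0e-16), with 219.8 TPM in DTL2 and 26.7 TPM in ATL. Itm2b, a transmembrane protein gene, had means of 2949 ± 437 against 6159 ± 410.4 TPM (log2 difference -1.07) and lost its call without DTL1 mouse 5 (log2 difference -0.98, adjusted p = 1.9e-07) and after quantile normalization. Of the 830 genes called higher in DTL3, 352 (42.4%) had their highest mean of all 15 groups in DTL3, 113 (13.6%) in IMCD and 89 (10.7%) in ATL. Of the 2183 genes called higher in DTL1, 1131 (51.8%) had their highest mean in DTL1, 440 (20.2%) in the glomerulus and 292 (13.4%) in a proximal segment. The DTL2 mean lay between those of DTL1 and DTL3 for 1368 (62.7%) of the calls higher in DTL1 and for 523 (63%) of those higher in DTL3.

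**Figure D3:**
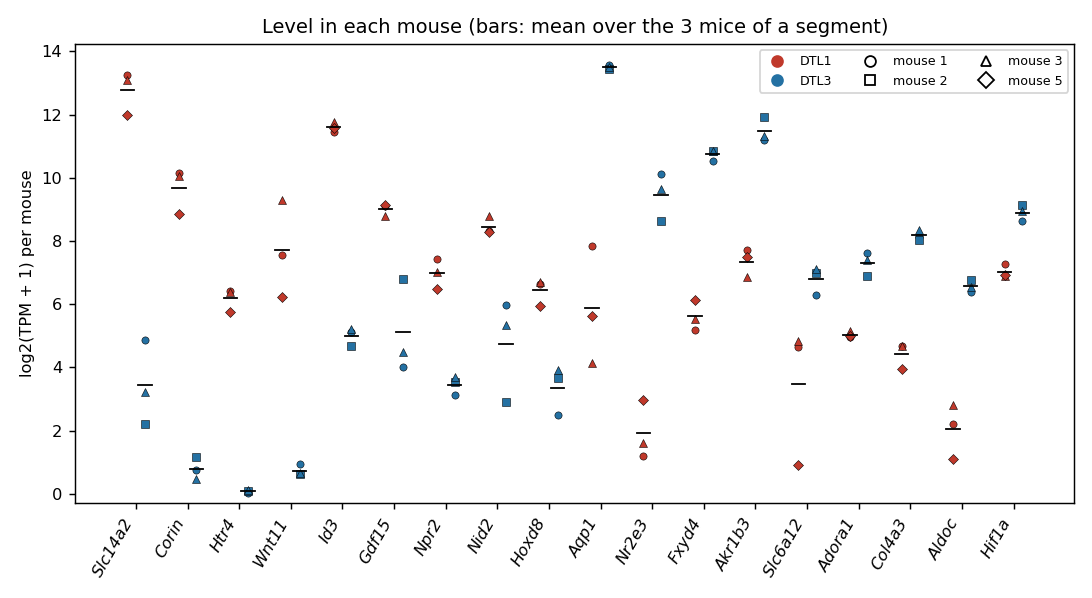
The vertical axis gives log2(TPM + 1) for each of the 6 mice, with DTL1 in red, DTL3 in blue, the marker showing the mouse number and the bar the mean over 3 mice. The first 9 genes were called higher in DTL1 and the last 9 in DTL3, and for none of the 18 did the mice of the segments overlap.

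Genes against high tonicity were tested as a list of 18. Of these, 9 were called higher in DTL3 and 3 higher in DTL1, and 6 were not called. All 18 stood at 10 TPM or more in either segment, where 6.85% of genes were called higher in DTL3 and 18% higher in DTL1. The median log2 difference of the list was -0.87, against 0.10 over the genes at 10 TPM or more and 0.33 over all genes tested. Akr1b3, the aldose reductase that makes sorbitol from glucose, stood at 207, 114 and 178 TPM in DTL1 and at 2352, 3878 and 2573 TPM in DTL3 (log2 difference -4.14 ± 0.29 (SE), adjusted p = 1.5e-15). Its mean was 5432 TPM in IMCD, 8434 TPM in ATL and 287 TPM in DTL2. Slc6a12, the betaine transporter, stood at 23.8, 27.9 and 0.86 TPM in DTL1 and at 76.5, 125 and 138 TPM in DTL3 (log2 difference -3.34, adjusted p = 1.6e-06), with DTL1 mouse 5 near 0. Nfat5, the transcription factor of the tonicity response, was at 28.1, 35.7 and 33 TPM in DTL1 and at 80, 68.2 and 97.7 TPM in DTL3 (log2 difference -1.31, adjusted p = 2.7e-07). S100a4, a calcium-binding protein gene, and Pnpla6, a phospholipase that yields the osmolyte glycerophosphocholine, had means of 4.84 ± 2.66 against 44 ± 5.48 TPM and of 68.3 ± 11.5 against 164 ± 20.5 TPM. The heat shock genes Hspa1a and Hspa1b, near-identical copies between which reads can be split, had means of 32.3 ± 16 against 255 ± 292 TPM and of 83.5 ± 82.8 against 424 ± 163 TPM. For both, DTL3 mouse 2 was the highest.

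The 3 members higher in DTL1 were Sord, Slc38a2 and Slc6a6. Sord, the enzyme that turns sorbitol into fructose, stood at 106, 50.5 and 123 TPM in DTL1 and at 5.23, 1.42 and 4.07 TPM in DTL3 (log2 difference 4.37 ± 0.29 (SE), adjusted p = 4.4e-16), and its PTS3 mean was 828 TPM. Slc6a6, the taurine transporter, had means of 628 ± 179.6 against 307 ± 75.4 TPM with an adjusted p of 0.044, and its call was lost without DTL1 mouse 1 or 5 or DTL3 mouse 1 or 2 (adjusted p = 0.16, 0.055, 0.058 and 0.18). Slc38a2, an amino acid transporter, had means of 145 ± 43.4 against 63.4 ± 28.3 TPM. It lost its call without mouse 1 of DTL1 (adjusted p = 0.06) or of DTL3 (adjusted p = 0.13), and the list then held 1 call on the DTL1 side. The small heat shock protein gene Cryab was high in both segments and was not called, at 9869, 6953 and 6576 TPM in DTL1 and at 9674, 15189 and 11048 TPM in DTL3 (log2 difference -0.62, adjusted p = 0.032). Fitted on the 2 segments alone, the list held 4 calls toward DTL3 and 1 toward DTL1: Slc6a12, Hspa1a, Hspa1b, Hspa4l, Slc2a1, Slc38a2 and Slc6a6 lost theirs.

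Glycolysis had the lowest median of the lists shown in the plot of list members. Of 23 tested, 13 were called higher in DTL3, 1 higher in DTL1 and 9 not called, with a median log2 difference of -1.11. Leaving out 1 mouse at a time gave 10 to 14 calls toward DTL3, and quantile normalization gave 14; the fit of the 2 segments alone gave 9. Aldoa, a glycolytic aldolase, stood at 1233, 1233 and 741 TPM in DTL1 and at 2685, 2534 and 2431 TPM in DTL3 (log2 difference -1.29 ± 0.14 (SE), adjusted p = 6.5e-10). Ldha, a subunit of lactate dehydrogenase, stood at 877, 759 and 809 TPM in DTL1 and at 2543, 2271 and 1985 TPM in DTL3 (log2 difference -1.47 ± 0.15 (SE), adjusted p = 1.1e-10). DTL1 mouse 5 was the lowest for Aldoa, and for both genes every DTL3 mouse was above every DTL1 mouse. Pkm, pyruvate kinase, and Pfkl, a phosphofructokinase, had means of 358 ± 81.8 against 915 ± 95.4 TPM and of 123 ± 16.6 against 284 ± 19.7 TPM. Aldoc, a further aldolase, showed the largest log2 difference of the list toward DTL3, at 3.64, 6.07 and 1.12 TPM in DTL1 and at 83.5, 107 and 92.5 TPM in DTL3 (log2 difference -4.54 ± 0.25 (SE), adjusted p = 7.9e-19). Slc16a3, a lactate exporter, and Slc2a1, the glucose transporter GLUT1, had means of 6.94 ± 5.35 against 30.6 ± 6.01 TPM and of 68.1 ± 26.3 against 192 ± 68.1 TPM, and both lost their calls when the 2 segments were fitted alone.

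Oxygen-regulated genes were listed separately and share Slc2a1 and Pdk1 with glycolysis. Of 18 tested, 8 were called higher in DTL3, 2 higher in DTL1 and 8 not called, with a median log2 difference of -0.60. The count toward DTL3 was 8 whichever mouse was left out, and 5 in the fit of the 2 segments alone, which lost Egln3, P4ha1 and Slc2a1. Hif1a, the oxygen-regulated subunit of hypoxia-inducible factor 1, stood at 153, 118 and 121 TPM in DTL1 and at 392.4, 564 and 488 TPM in DTL3 (log2 difference -1.87 ± 0.22 (SE), adjusted p = 7.0e-09). Epas1, the corresponding subunit of factor 2, showed the opposite order, at 13.9, 19.7 and 13.6 TPM in DTL1 and at 5.17, 3.1 and 3.98 TPM in DTL3 (log2 difference 1.67 ± 0.23 (SE), adjusted p = 1.2e-07). Vegfa, an endothelial growth factor, had means of 20.7 ± 3.89 against 96.8 ± 14.4 TPM, and Bnip3, a mitophagy receptor, of 61.5 ± 7.8 against 158 ± 26.9 TPM. Ankrd37 and Ddit4 had means of 17.3 ± 5.7 against 71.6 ± 12.1 TPM and of 2.1 ± 0.933 against 26.7 ± 15.7 TPM. Egln3, a prolyl hydroxylase that marks hypoxia-inducible factors for breakdown, had means of 17.9 ± 11.5 against 54.9 ± 7.79 TPM. The other gene higher in DTL1, Car9, had means of 7.79 ± 1.64 against 0.888 ± 0.386 TPM, and its PTS3 mean was 54.5 TPM; it was below 10 TPM in both segments.

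**Figure D4:**
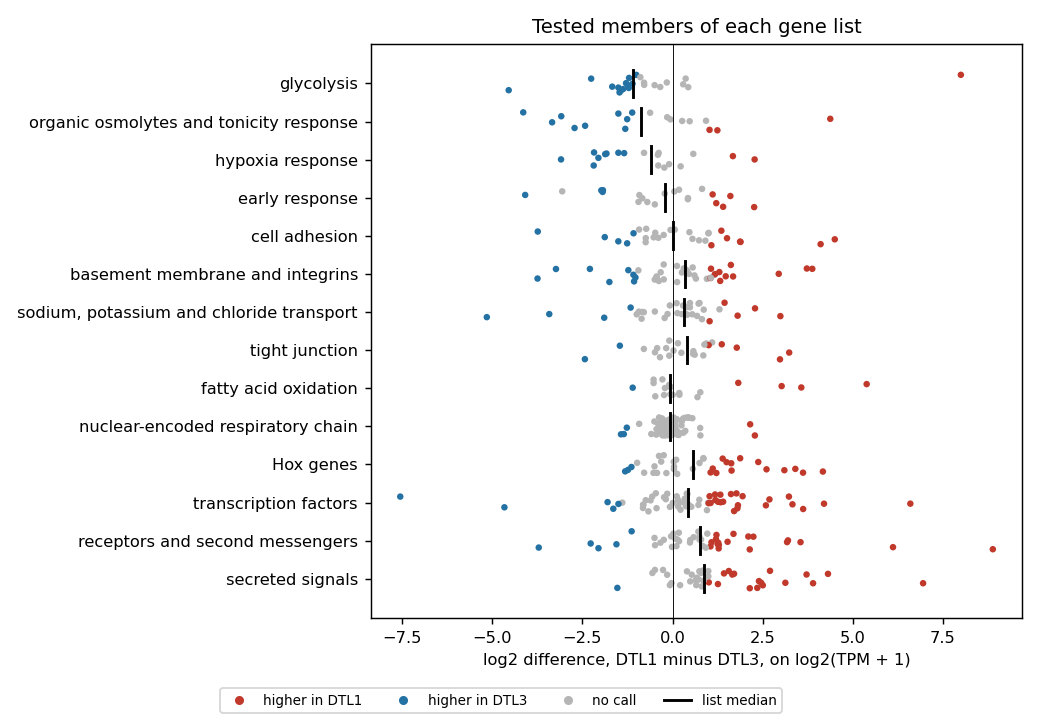
Each point is 1 tested member of a gene list, placed by its log2 difference between DTL1 and DTL3 on log2(TPM + 1), with red for genes called higher in DTL1, blue for genes called higher in DTL3, grey for no call and a black bar for the list median. Glycolysis, with 13 of 23 members called higher in DTL3, has the lowest median, and secreted signals, with 17 of 39 called higher in DTL1, the highest.

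Because the glycolytic and oxygen-regulated genes were called mostly toward DTL3, their promoters were searched for the core letters of the hypoxia response element, ACGTG and GCGTG, on both strands. RefSeq windows of GRCm38.p6 were used, from 250 bases before to 50 bases after each annotated start. All 20 genes of the 2 lists called higher in DTL3 had a window, and 19 of them (95%) held at least 1 match. Of the 15 uncalled members with a window, 13 (86.7%) held one too, so the match did not separate called from uncalled members. Among all 32851 windows the share was 43.8%, and counted per gene over 27025 genes it was 46.7%. Matches on the 2 strands overlap in CACGTG. A match is a description of these letters and not a site. The first listed window is shown for 3 of the genes, running 5′ to 3′ on the gene's strand, with matches in capitals.
Ldha, chr7:46845554-46845853, plus strand, 7 matches: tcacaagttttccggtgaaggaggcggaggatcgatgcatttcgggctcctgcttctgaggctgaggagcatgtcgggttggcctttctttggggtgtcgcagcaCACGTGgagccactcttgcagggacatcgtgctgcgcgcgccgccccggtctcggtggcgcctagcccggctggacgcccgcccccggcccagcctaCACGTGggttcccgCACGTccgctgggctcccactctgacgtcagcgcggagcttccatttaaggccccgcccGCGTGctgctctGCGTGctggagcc
Bnip3, chr7:138909457-138909756, minus strand, 5 matches: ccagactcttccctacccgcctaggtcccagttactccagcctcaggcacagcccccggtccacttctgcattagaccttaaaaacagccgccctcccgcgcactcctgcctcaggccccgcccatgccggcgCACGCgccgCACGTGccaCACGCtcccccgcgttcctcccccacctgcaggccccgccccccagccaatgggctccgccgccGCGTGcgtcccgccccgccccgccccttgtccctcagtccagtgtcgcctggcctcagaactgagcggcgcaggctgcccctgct
Aldoc, chr11:78322823-78323122, plus strand, 3 matches: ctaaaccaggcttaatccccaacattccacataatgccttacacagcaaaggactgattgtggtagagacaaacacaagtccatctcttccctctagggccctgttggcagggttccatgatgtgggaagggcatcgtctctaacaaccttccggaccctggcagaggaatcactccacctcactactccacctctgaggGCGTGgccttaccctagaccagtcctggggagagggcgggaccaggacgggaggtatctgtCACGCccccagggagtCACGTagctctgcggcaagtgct

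The letters TGGAAA, the core of the element bound by the tonicity factor Nfat5, were searched in the same way in the tonicity list. Of the 9 members called higher in DTL3, 8 had a window and 2 of these (25%) held a match, Pnpla6 and Slc6a12, against 23.9% of all genes and 21.4% of all windows. Of the uncalled members with a window 2 of 4 held a match, and of those called higher in DTL1 0 of 2. Akr1b3 had no window. The first of 5 windows of Slc6a12 is shown because this transporter differed between the segments and holds 1 match, in capitals.
Slc6a12, chr6:121342324-121342623, plus strand: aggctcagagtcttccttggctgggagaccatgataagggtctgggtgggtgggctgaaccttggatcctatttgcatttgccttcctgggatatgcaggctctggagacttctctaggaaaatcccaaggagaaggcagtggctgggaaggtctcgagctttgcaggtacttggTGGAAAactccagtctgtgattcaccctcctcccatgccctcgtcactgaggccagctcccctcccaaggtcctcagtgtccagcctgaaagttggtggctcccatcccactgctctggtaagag

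Of 83 nuclear-encoded respiratory chain genes, 2 were called higher in DTL1, 3 higher in DTL3 and 78 not called, against 21.3% of all genes called in either direction, with a median log2 difference of -0.07. Of 7 tested protein-coding genes of the mitochondrial genome, limma called 0. Of 20 fatty acid oxidation genes, 4 were called higher in DTL1, 1 in DTL3 and 15 not called, beside 26586 of 33793 not called over all genes tested. All 4, namely Slc27a2, Acadm, Ehhadh and Cd36, had a higher mean in PTS3 than in DTL1. Acadm, an acyl-CoA dehydrogenase, had means of 554 ± 138 against 153 ± 1.96 TPM and 3569 TPM in PTS3. Cpt2, the carnitine transferase of the inner mitochondrial membrane, was the member higher in DTL3, with means of 58.9 ± 4.77 against 131 ± 37.7 TPM, and lost its call without DTL3 mouse 3 (log2 difference -0.92) and in the fit of the 2 segments alone.

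Among secreted signals, 17 of 39 genes were called higher in DTL1, 1 higher in DTL3 and 21 not called, with a median log2 difference of 0.86. At 10 TPM or more the counts were 14 and 1 of 22, after quantile normalization 14 and 2 of all tested, and in the fit of the 2 segments alone 8 and 0. For 15 of the 17 the PTS3 mean was below the DTL1 mean. Gdf15, a stress-induced member of the TGF-beta superfamily, stood at 549.7, 446 and 567 TPM in DTL1 and at 15.3, 111 and 21.4 TPM in DTL3 (log2 difference 3.90 ± 0.56 (SE), adjusted p = 3.8e-07), and DTL3 mouse 2 was the highest of DTL3. Jag1, a Notch ligand, stood at 227, 122 and 105 TPM in DTL1 and at 11.8, 7.94 and 10.8 TPM in DTL3 (log2 difference 3.72 ± 0.26 (SE), adjusted p = 1.0e-15). Fstl1, a follistatin-like protein, stood at 365, 293 and 282 TPM in DTL1 and at 48.1, 21.9 and 40 TPM in DTL3 (log2 difference 3.13 ± 0.36 (SE), adjusted p = 2.5e-09). Bmp6, a bone morphogenetic protein, was at 40.5, 37.6 and 32.4 TPM in DTL1 and at 0.5, 1.05 and 1.23 TPM in DTL3 (log2 difference 4.31 ± 0.24 (SE), adjusted p = 1.7e-18). Bmp4 and Bmp3 had means of 50.6 ± 14.8 against 8.15 ± 3.28 TPM and of 51.8 ± 12.9 against 8.67 ± 5.94 TPM, and Bmp3 lost its call when the 2 segments were fitted alone. Smad7, an inhibitor of signals of this family that is also one of their targets, had means of 26.9 ± 10.7 against 4.19 ± 1.61 TPM. The gene higher in DTL3 was Wnt7b, at 231, 149 and 77 TPM in DTL1 and at 386, 400.3 and 422 TPM in DTL3 (log2 difference -1.53 ± 0.31 (SE), adjusted p = 1.7e-04), a call likewise lost in the fit of the 2 segments alone.

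Of 45 receptor and second messenger genes, 18 were called higher in DTL1, 5 higher in DTL3 and 22 not called; at 10 TPM or more the counts were 11 and 5 of 20. After quantile normalization the counts were 10 and 6, and with the 2 segments fitted alone 7 and 4. For 13 of the 18 the PTS3 mean was below the DTL1 mean. Beside Corin, Htr4 stood out. It encodes a serotonin receptor that raises cyclic AMP, and was at 85.3, 83.2 and 53.3 TPM in DTL1 and at 0.02, 0.06 and 0.095 TPM in DTL3 (log2 difference 6.11 ± 0.13 (SE), adjusted p = 9.8e-34). Its means in DTL2, ATL and IMCD were all under 1 TPM, at 0.164, 0.065 and 0.03. Npr2, the receptor of C-type natriuretic peptide, stood at 173, 129.9 and 88 TPM in DTL1 and at 7.71, 10.6 and 11.8 TPM in DTL3 (log2 difference 3.55 ± 0.30 (SE), adjusted p = 8.4e-13). Ednrb, an endothelin receptor also found on endothelium, had means of 221 ± 38.9 against 51.4 ± 30.6 TPM, and Ptgs1, a cyclooxygenase, of 48.6 ± 16.7 against 10.5 ± 3.34 TPM. Erbb4, a receptor of neuregulins, had means of 13.6 ± 9.83 against 0.248 ± 0.058 TPM; the calls of Erbb4 and Ednrb were lost in the fit of the 2 segments alone.

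The 5 receptors higher in DTL3 were Adora1, P2ry2, Egfr, Ptger2 and Avpr2. Adora1, an adenosine receptor that lowers cyclic AMP, stood at 30.3, 34.8 and 30.7 TPM in DTL1 and at 197, 117 and 169 TPM in DTL3 (log2 difference -2.27 ± 0.27 (SE), adjusted p = 7.6e-09). P2ry2, a receptor of ATP and UTP, and Egfr, the epidermal growth factor receptor, had means of 23.8 ± 4.18 against 102 ± 11.7 TPM and of 36 ± 5.91 against 108 ± 18 TPM. Ptger2, a prostaglandin E2 receptor that raises cyclic AMP, stood at 3, 2.52 and 0 TPM in DTL1 and at 47.5, 18.6 and 31.5 TPM in DTL3 (log2 difference -3.71 ± 0.29 (SE), adjusted p = 8.2e-14). Avpr2, the vasopressin receptor of the collecting duct, stood at 10.7, 11.8 and 1.93 TPM in DTL1 and at 11.7, 22.2 and 15 TPM in DTL3. DTL1 mouse 3 lay just above DTL3 mouse 1, so the groups overlapped. Its call was lost in the fit of the 2 segments alone, without DTL1 mouse 5 (adjusted p = 0.25) or DTL3 mouse 2 (adjusted p = 0.06, log2 difference -0.90). Collecting duct markers summed to 35.03 to 83.7 TPM in DTL1 mice and to 21.3 to 46.04 TPM in DTL3 mice, and their part in this call was not tested.

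Transcription factors were called higher in DTL1 for 22 of 60 and higher in DTL3 for 5, and 33 were not called; at 10 TPM or more the counts were 14 and 5 of 40. After quantile normalization the counts were 13 and 9, and with the 2 segments fitted alone 8 and 4. All 4 Id genes were called higher in DTL1. Beside Id3, Id1 had means of 527 ± 69.4 against 82.3 ± 20.4 TPM, Id2 of 357 ± 44.5 against 29.1 ± 8.89 TPM and Id4 of 155 ± 25.7 against 7.45 ± 1.37 TPM (log2 differences 2.69 and 3.62 for Id1 and Id2). In DTL2, Id2 and Id4 were at 452 and 272 TPM, above their DTL1 means, while Id1 was at 88.8 TPM. Foxc1 and Sim2 had means of 128 ± 36 against 48.7 ± 2.64 TPM and of 49.9 ± 16.2 against 5.67 ± 4.65 TPM, and Sim2 lost its call in the fit of the 2 segments alone. Hnf4a, a regulator of the proximal tubule, stood at 13.2, 6.36 and 26 TPM in DTL1 and at 0.26, 0.52 and 0.8 TPM in DTL3 (log2 difference 3.23), with 113 TPM in PTS3.

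Among the transcription factors higher in DTL3 were Nr2e3, described above, Elf3, Klf5 and Foxq1. Elf3 and Klf5, epithelial factors, had means of 57.4 ± 14.8 against 198 ± 4.59 TPM and of 23.3 ± 0.987 against 67.6 ± 3.98 TPM, and Foxq1 of 4.19 ± 1.1 against 16.1 ± 7.57 TPM; the call of Foxq1 was lost in the fit of the 2 segments alone. Pax8, which marks most of the renal epithelium, was not called, with means of 695 ± 159.6 against 1053 ± 215 TPM.

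Of 35 Hox genes tested, which pattern the body axis and stay active in the kidney, 14 were called higher in DTL1, 3 higher in DTL3 and 18 not called. After quantile normalization the counts were 8 and 7, in the fit of the 2 segments alone 6 and 2, and without DTL1 mouse 3 the count toward DTL3 was 5. At 10 TPM or more, 6 were called higher in DTL1, all of the Hoxc and Hoxd clusters, and 2 higher in DTL3, both of the Hoxb cluster. Hoxd8 stood at 99.3, 103 and 60.8 TPM in DTL1 and at 4.57, 11.7 and 14 TPM in DTL3 (log2 difference 3.10 ± 0.21 (SE), adjusted p = 3.6e-16). Hoxd10 and Hoxc10 had means of 48.3 ± 33.3 against 1.17 ± 0.769 TPM and of 25.8 ± 1.53 against 1.39 ± 1.03 TPM, and DTL1 mouse 5 was far below the others for Hoxd10, at 9.92 TPM. Hoxb2 and Hoxb6 had means of 49.3 ± 10.9 against 116 ± 5.94 TPM and of 65.2 ± 1.78 against 145 ± 10.4 TPM. Hoxb9 was not called, at 152 ± 47 against 165 ± 5.41 TPM.

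Matrix and surface genes were called in both directions. Of 40 basement membrane and integrin genes, 11 were called higher in DTL1, 8 higher in DTL3 and 21 not called. At 10 TPM or more the counts were 7 and 8 of 33, and after quantile normalization 10 and 10 of all tested. Without DTL1 mouse 5 the count toward DTL3 was 5, and the fit of the 2 segments alone gave 5 and 5.  Col4a3 and Col4a4, which form a network with Col4a5, were both called. Col4a3 stood at 24.4, 24.9 and 14.3 TPM in DTL1 and at 278, 262 and 328 TPM in DTL3 (log2 difference -3.74 ± 0.19 (SE), adjusted p = 8.3e-20). Col4a4 stood at 59.2, 50.7 and 21.4 TPM in DTL1 and at 201, 197 and 204 TPM in DTL3 (log2 difference -2.29 ± 0.25 (SE), adjusted p = 1.1e-09). Col4a5 had means of 31.4 ± 14 against 70.6 ± 12.7 TPM and lost its call without DTL1 mouse 5 (log2 difference -0.86) and in the fit of the 2 segments alone. The ubiquitous chains Col4a1 and Col4a2 were not called, with means of 119 ± 19.9 against 76.5 ± 24.1 TPM and of 44.1 ± 11.2 against 41.1 ± 14.4 TPM. The laminin chains Lama3 and Lamb3 had means of 0.707 ± 0.441 against 14.6 ± 1.85 TPM and of 25.7 ± 6.71 against 87.2 ± 3.96 TPM. On the DTL1 side, the nidogens Nid2 and Nid1, which link laminin to collagen IV, had means of 355 ± 71.3 against 35.9 ± 27.7 TPM and of 81 ± 20 against 9.71 ± 2.43 TPM, and Nid2 lost its call in the fit of the 2 segments alone. Endothelium also makes collagen IV and nidogens, and the higher endothelial markers of DTL1 are given above; their part in these differences was not tested.

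Among 28 adhesion genes, 7 were called higher in DTL1, 5 higher in DTL3 and 16 not called. At 10 TPM or more the counts were 4 and 5 of 18. They were 4 and 7 of all tested after quantile normalization, and 3 and 4 in the fit of the 2 segments alone. Epha7, an ephrin receptor, stood at 19.9, 26.6 and 15.1 TPM in DTL1 and at 244, 296 and 300.4 TPM in DTL3 (log2 difference -3.74 ± 0.23 (SE), adjusted p = 3.6e-17), and Ephb2 had means of 7.15 ± 2.95 against 28.5 ± 7.27 TPM. Cdh3, P-cadherin, stood at 20.7, 17.1 and 14.6 TPM in DTL1 and at 0.13, 0.03 and 0.03 TPM in DTL3 (log2 difference 4.11 ± 0.19 (SE), adjusted p = 1.6e-21). Cdhr5, a cadherin of the brush border, had means of 37.7 ± 3.97 against 0.807 ± 0.618 TPM and 212 TPM in PTS3. Of 12 intermediate filament genes, 3 were called higher in DTL1 and 2 in DTL3. Krt18 and Krt7 had means of 214 ± 63.8 against 522 ± 44.7 TPM and of 78.5 ± 22.3 against 198 ± 16.7 TPM, while Krt23 and Krt19 had means of 59.5 ± 13.5 against 0.862 ± 0.696 TPM and of 50.2 ± 9.08 against 3.37 ± 0.706 TPM. Krt18 lost its call with a pseudocount of 0.1 (log2 difference -1.33, adjusted p = 0.095 for Krt18). Krt8, the usual partner of Krt18, was not called, at 133 ± 11.8 against 134 ± 9.12 TPM.

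Of 24 tight junction genes, 5 were called higher in DTL1, 2 higher in DTL3 and 17 not called; without DTL1 mouse 3 the count toward DTL1 was 3, and 1 in the fit of the 2 segments alone. Cldn8 and Cldn7, the claudins with the highest levels, were not called, with means of 1027 ± 286 against 1279 ± 78.3 TPM and of 272 ± 24.5 against 269.6 ± 47.8 TPM. Cldn4 stood at 43.6, 41.8 and 28.6 TPM in DTL1 and at 166, 281 and 183 TPM in DTL3 (log2 difference -2.43 ± 0.29 (SE), adjusted p = 9.2e-09) and was at 2 TPM in DTL2. Tjp3, a scaffold protein of the junction, had means of 32.3 ± 3.01 against 89.3 ± 12.4 TPM. On the DTL1 side, Cldn2, a pore-forming claudin, had means of 24.9 ± 5.99 against 6.38 ± 1.42 TPM, far below DTL2 at 539 and PTS3 at 254 TPM. Cldn10, a claudin of the thin ascending limb, had means of 17.7 ± 7.81 against 1.43 ± 1.44 TPM, a call lost in the fit of the 2 segments alone. Its ATL mean was 3517 TPM. Of the 6 markers of the thin ascending limb, 2 were called higher in DTL1 and 2 higher in DTL3, with sums of 46.7 to 73.1 TPM and of 172 to 293 TPM. Cldn4 and Cldn10 are among these 6, and Cldn4 makes up most of the sums in DTL3. The counts were 1 and 1 after quantile normalization and 0 and 1 in the fit of the 2 segments alone. The count toward DTL1 was 1 without DTL1 mouse 5, DTL3 mouse 1 or DTL3 mouse 2. Without DTL1 mouse 5 the count toward DTL3 was also 1.

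Of 34 sodium, potassium and chloride transport genes, 5 were called higher in DTL1, 4 higher in DTL3 and 25 not called; without DTL1 mouse 1 the count toward DTL3 was 7, after quantile normalization 8 and in the fit of the 2 segments alone 2. The largest differences were those of Fxyd2 and Fxyd4, given above. Kcnk1, a two-pore potassium channel, stood at 431, 621 and 313 TPM in DTL1 and at 134, 111 and 129.99 TPM in DTL3 (log2 difference 1.80 ± 0.28 (SE), adjusted p = 1.9e-06). Slc9a2, a sodium-proton exchanger, had means of 31.9 ± 17.7 against 2.81 ± 0.98 TPM. Of 20 acid-base transport genes, 5 were called higher in DTL1 and 3 higher in DTL3; without DTL1 mouse 5, without DTL3 mouse 1 or after quantile normalization the first count was 3, and the fit of the 2 segments alone gave 1 and 1. Slc4a11 stood at 59.9, 24.3 and 43.6 TPM in DTL1 and at 885, 849 and 1051 TPM in DTL3 (log2 difference -4.55 ± 0.41 (SE), adjusted p = 5.5e-12) and reached 2514 TPM in DTL2. Slc26a7, an anion exchanger, was at 14.4, 12.7 and 8.2 TPM in DTL1 and at 0.27, 0.35 and 0.4 TPM in DTL3 (log2 difference 3.22).

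Immediate-early genes, which are switched on within minutes of a stimulus, set DTL3 mouse 2 apart. Fos stood at 10.3, 2666 and 1.22 TPM in DTL3 and at 4.12, 3.1 and 4.44 TPM in DTL1. Egr1 stood at 65.3, 650.3 and 4.62 TPM in DTL3 and at 2.02, 13.7 and 0.07 TPM in DTL1, and Junb at 114, 1922 and 49.8 TPM in DTL3 and at 67.8, 65.7 and 43.2 TPM in DTL1. In all 3 genes DTL3 mouse 2 was far above the other 5 mice. For Fos, DTL3 mouse 3 lay below every DTL1 mouse, and for Egr1 it lay below DTL1 mouse 3. Of 21 early response genes tested, 4 were called higher in DTL3, namely Egr1, Junb, Ier2 and Zfp36, and 5 higher in DTL1, a count that fell to 3 without DTL1 mouse 5 or DTL3 mouse 3. Without DTL3 mouse 2 none (0) of the 4 remained called by limma, and none (0) without DTL1 mouse 5. The list held 6 calls toward DTL3 and 3 toward DTL1 after quantile normalization, and 6 toward DTL3 without DTL3 mouse 1 or 3. Egr1 had a log2 difference of -4.09 (adjusted p = 0.0049) and of -2.37 without DTL3 mouse 2 (adjusted p = 0.12). Arc, another early gene that was outside the list and chosen after its values were seen, stood at 15.8, 1.19 and 5.31 TPM in DTL1 and at 54.7, 1030.2 and 27.1 TPM in DTL3 (log2 difference -4.26 ± 0.66 (SE), adjusted p = 1.8e-06). It kept its call without DTL3 mouse 2 (log2 difference -2.69, adjusted p = 8.9e-05) and lost it in the fit of the 2 segments alone and in that of DTL1, DTL2 and DTL3. Fos was not called (log2 difference -3.06 ± 1.48, adjusted p = 0.097). Dusp1, a phosphatase induced with these genes, was called higher in DTL1, at 1801, 855 and 737 TPM in DTL1 and at 96.3, 1378 and 73.8 TPM in DTL3, a call lost without DTL3 mouse 3 (adjusted p = 0.059). The fit of the 2 segments alone kept 1 call toward DTL1 on this list and 0 toward DTL3, and lost those of Dusp1, Egr1, Junb, Ier2 and Zfp36. Of the genes named above, Hspa1a was also highest in DTL3 mouse 2, at 86.3, 592 and 85.8 TPM, and kept its call without it (adjusted p = 0.036). The time from dissection to lysis of each sample is not given in the sources used here.

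**Figure D5:**
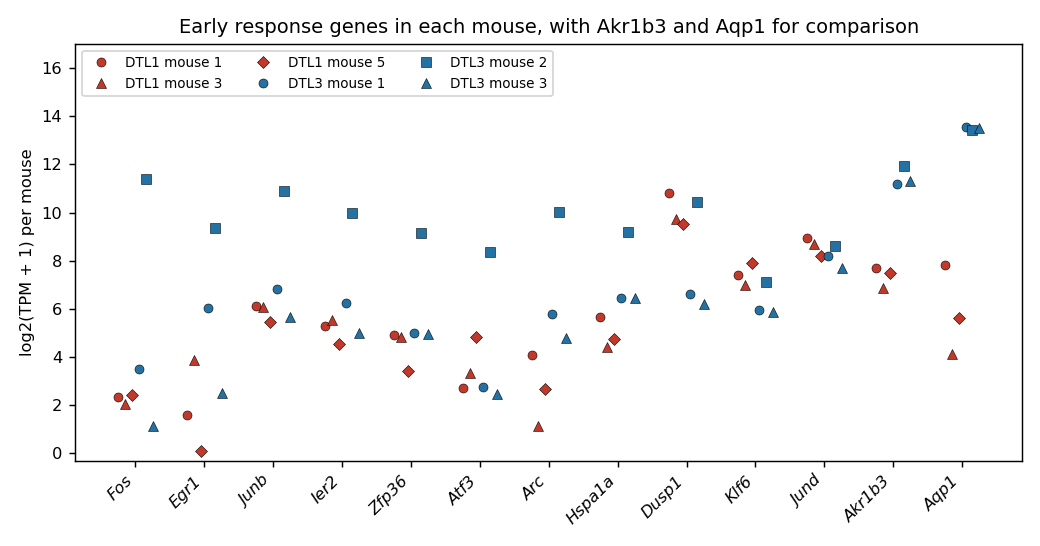
The vertical axis gives log2(TPM + 1) in each of the 6 mice, red for DTL1 and blue for DTL3, with the marker showing the mouse. DTL3 mouse 2 (blue square) lies above the other 5 mice for the first 8 genes, Fos to Hspa1a, while Akr1b3 and Aqp1, shown for comparison, are high in all 3 DTL3 mice.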

How the data were processed

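The authors deposited 1 table of TPM (transcripts scaled to a fixed total per sample) for 54532 gene IDs. Each sample of it sums to between 999998.6 and 1000190.3. Per the submitters' processing notes, STAR 2.5.4a and RSEM 1.3.0 were used. The genome build and the read depth are not given in the sources used here. The 3 single-cell samples of the series were not analysed here. Pieces are tied to an animal by the mouse number and segment alone. The p-values of the main fit rest on the spread between these units within segments, pooled over all groups and not taken from DTL1 and DTL3 alone.

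From the deposited TPM values, pieces of 1 mouse and segment were averaged as log2(TPM + 1), giving 53 units in 15 groups. TPM values printed for mouse 3 of a segment are plain means of its 2 pieces, while the fits used the log averages. Genes at 1 TPM or more in at least 3 mice (33793) were fitted with limma 3.58.1 in R 4.3.3, with 1 spread estimated over all 15 groups and its trend with expression, and p-values were adjusted by Benjamini-Hochberg over all of them. DTL1 and DTL3 mice with the same number were taken as different mice because the count of mice equals that of number and segment combinations, which the labels do not state outright. On that ground the numbers were not used as pairs in the main fit. Deviations from the segment means were uncorrelated between mice with the same number (r = 0.0035 for number 1 and 0.0034 for number 3). Mice with different numbers gave r from -0.017 to 0.015. No 2 samples of different segments are known to share a mouse, so this check cannot tell shared from separate mice. Genes were named by rule: protein-coding, called, without overlap between mice and at a mean of 10 TPM or more where higher, the 15 largest log2 differences and the 10 largest TPM differences per direction, plus members of the lists; a few genes that the rule covers are not reported here. The gene lists and the members were chosen with earlier results of these data known. On simulated data with 100 genes changed by a log2 difference of 2 and 100 by 3, the DTL1 and DTL3 contrast recovered 87% and 98%, with 12 other genes called among 33793. The simulated noise was independent and had the same SD for a gene in every group, as the fit assumes. The simulation checks that the fit runs as intended, and its rates need not hold for the real mice. Motif letters were searched in RefSeq promoter windows of GRCm38.p6. Python 3.11.15 with pandas 2.3.3, scipy 1.17.1 and matplotlib 3.10.9 served for the remaining steps. Alternatives covered the pseudocount, filters, rescaling, the averaging of pieces, the groups in the fit, the replicate block and leaving out each mouse.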

Additional observations from a re-analysis of the deposited data

Results flagged for a closer look

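Of 166 values of named genes examined over the 4 samples of a segment, 27 held 1 sample whose gap to the nearest other, divided by the range, exceeded Dixon's 95% critical value for 4 samples. Chance flags about 1 in 20 such sets where the 4 samples are independent. In each segment 2 of the 4 were pieces of mouse 3, so that rate need not hold here. The values are given with no explanation. In 13 of the 27 the sample apart was DTL3 mouse 2, the highest in every case.

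Among early response and heat shock genes, DTL3 mouse 2 held Fos at 2666 TPM (0.91 to 10.3 TPM in the other 3 samples), Junb at 1922 (44.4 to 114), Arc at 1030.0 (25.4 to 54.7) and Ier2 at 997 (26.0 to 74.6). In the same sample Egr1 was at 650.3 TPM (2.21 to 65.3 in the others), Zfp36 at 572 (29.0 to 30.9) and Atf3 at 332 (1.89 to 7.02). Hspa1a was at 592 TPM (85.4 to 86.3) and Hspa1b at 612 (326 to 341). Outside that group of genes, the sample was highest for Cldn4 at 281 TPM (166 to 184), Rnf183 at 259 (122 to 139), Pfkfb3 at 252 (91.3 to 118) and Rasal1 at 183 (120.4 to 129). DTL3 mouse 1 was lowest for Epha7 at 244 TPM (296 to 302), Fxyd4 at 1477 (1826 to 1875) and Slc4a7 at 14.2 (28.9 to 31.1).

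In DTL1, piece a of mouse 3 was highest for Plvap at 3489 TPM (2015 to 2252 in the other 3 samples), Id4 at 225 (136 to 146), Col4a1 at 172 (104 to 111) and Epas1 at 28.3 (11.2 to 13.9), and lowest for Gdf15 at 311 (549.7 to 580.3). Mouse 1 was highest for Aadat at 397 TPM (215 to 228), Fstl1 at 365 (282 to 295) and Hoxc6 at 26.8 (14.6 to 15.8). Mouse 5 was highest for Akr1c21 at 156 TPM (89.5 to 98.5), and lowest for Sim2 at 31.2 (57.8 to 60) and Hoxd10 at 9.92 (65.0 to 70.8).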

How the results depend on the processing

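Of 7207 calls among all genes tested, 5921 were toward DTL1 and 1286 toward DTL3; of 3013 at 10 TPM or more, 2183 and 830. Fitting DTL1 and DTL3 alone gave 1292 calls (886 and 406), and 1173 (792 and 381) at 10 TPM or more. Fitting DTL1, DTL2 and DTL3 alone gave 2671 (2033 and 638), and 1863 (1310 and 553). These fits hold fewer samples. A pseudocount of 5 gave 2515 calls over all genes (1847 and 668), a filter at 5 TPM 4502 (3461 toward DTL1) and protein-coding genes alone 3721 (2868 and 853). Quantile normalization gave 4352 over all genes (2014 and 2338), so the share toward DTL1 was 46.3% against 82.2%, and 1736 toward DTL3 at 10 TPM or more; the cause was not tested. A floor of 5 TPM in place of 10 gave 4872 calls (3871 toward DTL1), and a floor of 50 gave 927 (506 and 421), since fewer or more genes then qualify. Leaving out 1 mouse at a time gave 5749 to 8937 calls over all genes (4746 to 7218 and 1003 to 1813), and 2440 to 3337 at 10 TPM or more (1760 to 2330 and 680 to 1060.0). With the mouse number as a replicate block, 6480 genes were called (5277 and 1203), and 2804 at 10 TPM or more (2018 and 786). Of the 45 genes named by size, no alternative changed a direction; the fit of DTL1 and DTL3 alone lost the calls of Plvap and Spp1. Of the 138 called genes followed through the alternatives, that fit lost 30 and the 3-segment fit 13. Those 138 leave out some called genes named above. Among all 282 listed and named genes that were called, the fit of DTL1 and DTL3 alone lost 124. The 3-segment fit lost 72 of the 282 and a pseudocount of 5 lost 73. TPM values carry no depth, so counting error at low levels could not be assessed.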

Other observations

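Further genes, chosen after their values were seen, set the short descending limb apart. Uncx, a homeobox gene, stood at 230.4, 163 and 95.1 TPM in DTL1 and at 1.52, 2.08 and 1.44 TPM in DTL3 (log2 difference 5.85 ± 0.24 (SE); limma adjusted p = 5.1e-23). Its DTL2 mean was 0.783 TPM. Atoh8, a basic helix-loop-helix factor, stood at 90.1, 99.5 and 86.1 TPM in DTL1 and at 0.39, 0 and 1.01 TPM in DTL3, and Eya2, a transcriptional coactivator and phosphatase, at 62, 65.4 and 54.4 TPM in DTL1 and at 1.59, 0.06 and 0.64 TPM in DTL3. Both were called, with log2 differences of 6.07 and 5.25, and DTL2 held them at 10.1 and 0.707 TPM. Map3k20, a stress-activated kinase, was even within each segment, at 249.8, 267 and 195 TPM in DTL1 and at 3.58, 3.72 and 3.77 TPM in DTL3 (log2 difference 5.65). All 4 genes had their highest mean of the 15 groups in DTL1.

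Single genes known from the interferon response or antigen presentation were also picked after seeing values, for being higher in DTL1, and stand for no list. Ifit3b, a near-identical copy of Ifit3, stood at 802, 700.2 and 697 TPM in DTL1 and at 18.1, 10.8 and 16 TPM in DTL3 (log2 difference 5.54). Psmb8, a subunit of the immunoproteasome, stood at 84.2, 109 and 142 TPM in DTL1 and at 7.49, 1.08 and 4.39 TPM in DTL3 (log2 difference 4.62), and H2-K1, a class I histocompatibility gene with close paralogs, at 821, 1079 and 799 TPM in DTL1 and at 153, 154 and 154 TPM in DTL3 (log2 difference 2.52). Bst2 had means of 185 ± 7.2 against 39.2 ± 21.3 TPM and had its highest mean of the 15 groups in the glomerulus. DTL2 held intermediate levels of all 4, at 86.2, 37.9, 447 and 114 TPM. Isg15 and Psmb9, picked in the same way, had means of 40.1 ± 18.6 against 3.79 ± 3.82 TPM and of 38.1 ± 20.8 against 2.65 ± 2.47 TPM and lost their calls in the fit of the 2 segments alone. Of the endothelial markers 6 of 15, and of the leukocyte markers 2 of 12, were called higher in DTL1, beside 17.5% of all genes tested. The leukocyte count is near that share. The part of these cell types in the differences was not tested.

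In DTL3, the connexin Gjb5 stood at 17.3, 26.6 and 19.1 TPM, against 0, 0 and 1.41 TPM in DTL1, and had its highest mean in ATL. Slc34a2, a sodium-phosphate cotransporter, stood at 3.98, 3.83 and 5.69 TPM in DTL1 and at 167, 119.7 and 105 TPM in DTL3 (log2 difference -4.57). Cdkn1a, the cell cycle inhibitor p21, stood at 10.5, 10 and 16.1 TPM in DTL1 and at 286, 237 and 234 TPM in DTL3 (log2 difference -4.28 ± 0.66 (SE); limma adjusted p = 1.6e-06). Its DTL2 mean was 7.15 TPM. Nbl1, a secreted antagonist of bone morphogenetic proteins, stood at 92.1, 52.2 and 72.3 TPM in DTL1 and at 1354, 1179 and 1134 TPM in DTL3 (log2 difference -4.10), while Rtn1, a reticulon, had means of 5.46 ± 1.26 against 169 ± 39 TPM and 84.7 TPM in DTL2.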
